A study of Mus musculus with 28 samples.

Results

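The TNF pathway of the mouse spleen was followed through the cytokine gene Tnf, the receptor genes Tnfrsf1a and Tnfrsf1b, the adaptor and ligase genes Traf1, Traf2 and Birc3, and the feedback genes Tnfaip3, which encodes A20, Tnip1 and Tnip3, together with Tnfaip2. These 10 genes were taken by name, with earlier results of these data known. Each was represented by the probe set that names it alone and has the highest mean over all arrays. Of the 10, 9 had such a probe set, among 18193 genes on the array that did, and Tnip3 is not analysed here. The 9 genes had 15 single-gene probe sets between them.

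TNF is a cytokine that macrophages and other immune cells release on sensing bacterial products such as lipopolysaccharide (LPS). Its binding to TNF receptor 1 (Tnfrsf1a) or TNF receptor 2 (Tnfrsf1b) assembles TRAF2 and the ubiquitin ligases cIAP1 and cIAP2 (cIAP2 is Birc3) into a complex that leads to activation of the transcription factor NF-kB. A20 (Tnfaip3), a ubiquitin-editing enzyme whose gene is itself an NF-kB target, works with its binding partner ABIN1 (Tnip1) to restrain this signalling.

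The samples were spleens from mice fed a control diet or one supplemented with the plant hormone abscisic acid (ABA), and either challenged with LPS or not. All carried floxed Pparg alleles, and the null mice also carried Cre under the MMTV promoter (PPAR g flfl with MMTV-Cre+), while wild-type mice were PPAR g flfl with MMTV-Cre-. The labels describe the deletion both as specific to the spleen and as specific to epithelial and immune cells, so unrecombined cells may remain in a null spleen. In the first experiment, of wild-type mice only, 4 arrays held LPS-challenged mice and 2 unchallenged mice on each diet. In the second, which held both genotypes, each of 8 combinations of genotype, diet and LPS held 2 arrays. Age, the ABA dose, the LPS dose and the time after LPS are not given in the sources used here. The labels do not say whether replicates were separate animals, and p-values therefore cover only sample-to-sample spread, which may be technical. Precision is limited by how few arrays there are.

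The promoters of the feedback genes Tnfaip3 and Tnip1, and of Tnfaip2, are shown because they carry matches to the NF-kB consensus. This motif of 10 bases was searched on both strands. RefSeq promoters (GRCm38.p6), each reaching from 250 bases before to 50 bases after a start site, were in hand for all 10 genes, 11 promoters in total. Matches lay in 4 of the 11, for Tnfaip2, Tnfaip3, Tnip1 and Tnip3, beside 8.46% of all 32851 promoters of that length. The 150 bases before the start site are printed for the 3 of these genes that were measured, with the bases of the matches in capitals. Tnfaip2 lies at chr12:111442511-111442660 on the plus strand, Tnfaip3 at chr10:19015411-19015560 on the minus strand and Tnip1 at chr11:54962941-54963090 on the minus strand.
Tnfaip2: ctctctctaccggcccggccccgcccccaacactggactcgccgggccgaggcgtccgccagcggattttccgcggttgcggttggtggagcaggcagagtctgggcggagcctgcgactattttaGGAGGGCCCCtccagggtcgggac
Tnfaip3: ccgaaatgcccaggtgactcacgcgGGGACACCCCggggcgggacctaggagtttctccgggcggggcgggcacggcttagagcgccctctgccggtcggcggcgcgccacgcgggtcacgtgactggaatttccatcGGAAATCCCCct
Tnip1: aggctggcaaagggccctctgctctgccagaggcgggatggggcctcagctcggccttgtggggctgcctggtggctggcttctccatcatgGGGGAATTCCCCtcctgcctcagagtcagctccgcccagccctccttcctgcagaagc
Tnfaip3 held separate matches starting 125 and 12 bases before the start site, and the capitals in Tnip1 are 3 overlapping matches. The second Tnfaip3 promoter in the table and those of Tnf, Birc3, Traf1, Traf2, Tnfrsf1a and Tnfrsf1b held no match, which says only that these letters are not in these windows.

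Values are the authors' log2 values, whose lowest value was 2.29 in the first experiment and 2.24 in the other and filled 35.9% to 41.9% of each array. A value within 0.5 log2 units of it is called near the lowest. Levels are set side by side only within an experiment and a gene, because the lowest correlation of arrays inside an experiment was 0.942, against 0.769 to 0.837 across the experiments. B cell and T cell markers had mean levels of 7.64 to 10.21 and 6.71 to 8.74 per array, with Pax5 near the lowest throughout the second experiment. Pparg itself was between 2.29 and 3.70 and between 2.31 and 3.56, too low for this probe set to check the genotype. Xist was high on all 12 arrays of the first experiment and on 6 of 16 in the second, and Cpa1, a pancreatic transcript, exceeded the lowest value by more than 2 log2 units on 4 arrays. On the first unchallenged ABA array of wild-type mice in the second experiment, 7 of the 9 genes had their lowest value of the 16.

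LPS raised the feedback genes Tnfaip3 and Tnip1, the ligase gene Birc3 and the adaptor gene Traf1 in wild-type spleens of both experiments. Tnfaip3 rose 7.57-fold and 12.4-fold, Tnip1 2.91-fold and 4.45-fold, Birc3 2.32-fold and 4.02-fold and Traf1 2.01-fold and 10.9-fold, in the first experiment and the other in turn. Tnf lay near the lowest value on all first-experiment arrays, so its change could not be measured there. In wild-type mice of the second experiment its mean was 4.06-fold higher, with unchallenged arrays set to 2.74, the upper edge of the near-lowest range. Neither receptor gene passed in any LPS comparison. By limma with Benjamini-Hochberg adjustment at 0.05, with diets averaged, 6 of the 9 genes rose in the first experiment, Traf2 among them with most arrays near the lowest value, and none fell, where 27.1% of 12059 tested genes changed, 15.1% rising and 12.0% falling. Again 6 of 9 rose in wild-type mice of the second experiment, where 14.0% of 13377 genes changed, 8.55% rising and 5.49% falling. In null mice 5 of 9 rose, where 7.40% changed, 3.95% rising and 3.45% falling. The median change of the 9 genes was 0.92, 2.01 and 1.71 log2 units in these 3 comparisons, beside 0.00, 0.00 and -0.01 over all tested genes. Since the genes were chosen with earlier results known, these counts and medians describe them and are not a test.

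**Figure D1:**
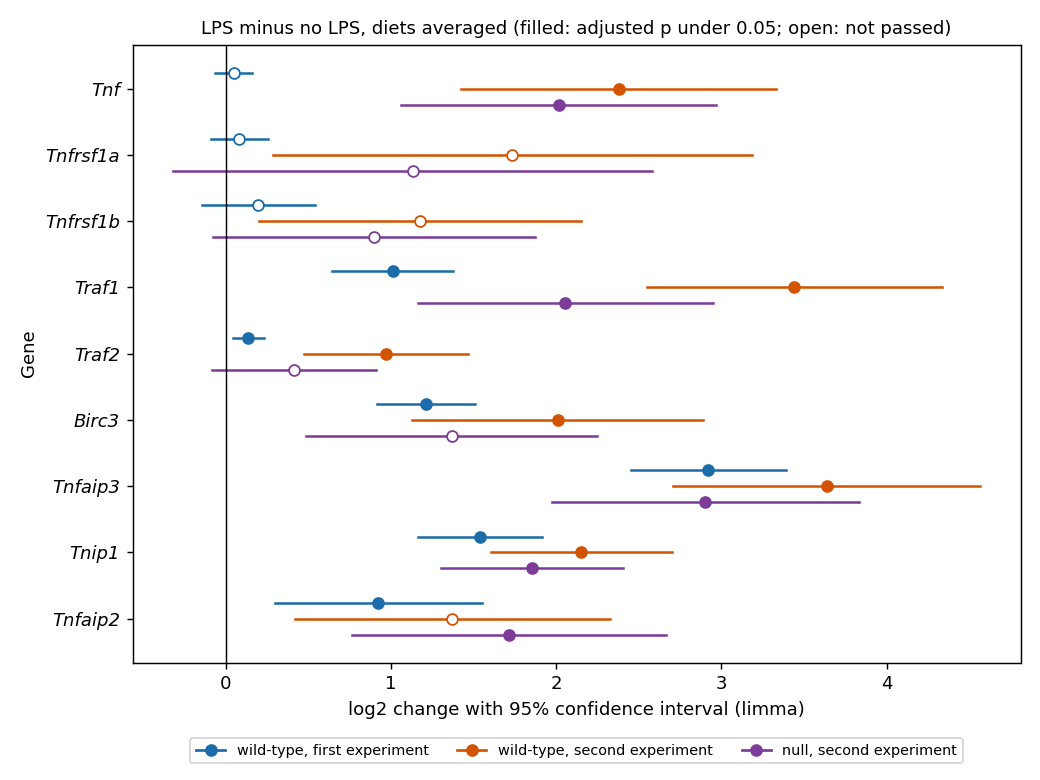
Change with LPS of each gene in log2 units (horizontal axis), with the 95% confidence interval from limma, for wild-type mice of the first experiment (blue), wild-type mice of the second experiment (orange) and null mice (purple). Filled points passed an adjusted p of 0.05; Tnfaip3 and Tnip1 are filled in all 3 comparisons, and both receptor genes are open in all 3. Tnf and Traf2 in the first experiment, and Tnf without LPS in the second, lay near the lowest value.

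The ligand gene, Tnf (chromosome 17), lay near the lowest value on every one of the 12 first-experiment arrays. It read 2.30 on each of the 4 unchallenged arrays. With LPS it read 2.59, 2.33, 2.35 and 2.30 on the control diet and 2.30 on all 4 ABA arrays. A single value, 2.299, was repeated on 7 of the 12 arrays. The change of 0.05 ± 0.05 log2 units (SE, limma adjusted p = 0.526) did not pass, and a transcript at the lowest value could vary without being seen.

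In the second experiment, Tnf in unchallenged wild-type mice read 2.74 and 2.26 on the control diet and 2.24 and 2.30 on ABA, all near the lowest. With LPS it read 4.06 and 5.89 on the control diet and 4.00 and 5.10 on ABA. In null mice it read 2.98 and 2.74, then 2.46 and 2.32, without LPS. With LPS the null arrays read 3.23 and 4.43 on the control diet and 5.58 and 5.33 on ABA. Every LPS array stood above every unchallenged array of its genotype. The fitted rise was 2.38 ± 0.42 log2 units in wild-type mice (limma adjusted p = 0.00768) and 2.02 ± 0.42 in null mice (limma adjusted p = 0.0228). The unchallenged arrays were near the lowest value in 4 of 4 wild-type and 2 of 4 null mice, so the size of these rises is uncertain. Such arrays were then set to the upper edge of the near-lowest range, at 2.74. On that basis mean Tnf was 4.06-fold higher with LPS in wild-type and 3.59-fold higher in null mice. These folds allow for the lowest value but not for the spread between arrays. The call in null mice was lost without the 2 unchallenged null arrays high in Cpa1 (adjusted p = 0.0870), and on leaving out any of 5 null arrays: both unchallenged ABA arrays in turn (adjusted p 0.0621 and 0.0626), both challenged ABA arrays in turn (0.0748 and 0.0529) or the second challenged control array (0.0696).

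**Figure D2:**
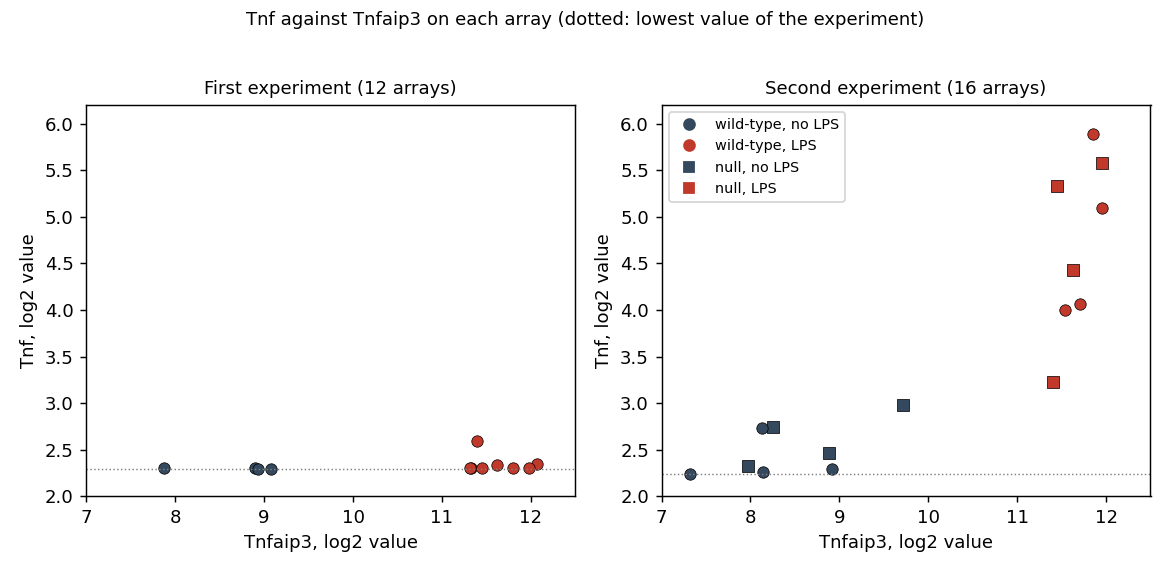
Tnf (vertical axis) against Tnfaip3 (horizontal axis), both as log2 values, with 1 point per array; the dotted line is the lowest value of the experiment. In the first experiment (12 arrays) Tnfaip3 splits the arrays by LPS while Tnf stays between 2.30 and 2.59, and in the other (16 arrays) LPS arrays are higher in both.

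The LPS changes of the experiments were compared over the 20 wild-type arrays, in a test added after the values were seen. Tnf and Traf2 lay near the lowest value on 12 and 10 of the 12 first-experiment arrays, and their changes are not compared for that reason. Of the other 7 genes only Traf1 passed, with an LPS change larger by 2.43 ± 0.45 log2 units in the second experiment (limma adjusted p = 0.00713). In this test 4.80% of 13873 genes were called in either direction and 2.78% higher. The further probe set of Traf1 was not put to this test. Its means without and with LPS were 4.20 and 5.39 in the first experiment, and 7.30 and 9.55 in wild-type mice of the second, so the gap may depend on the probe set. The other 6 did not pass, with differences of 0.45 for Tnfaip2 to 1.65 for Tnfrsf1a, and Tnfrsf1a held 1 repeated value, 6.179, on 5 of the 12 first-experiment arrays. Experiment, array run and mouse cohort cannot be told apart here. Xist class differed between the experiments too, high on all 12 first-experiment arrays and low on some wild-type arrays of the second.

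Neither receptor gene was called in the 3 LPS comparisons. Tnfrsf1a (chromosome 6), the receptor on most cell types, read 6.18 on all 4 unchallenged arrays of the first experiment. With LPS it read 6.27, 6.45, 6.37 and 6.18 on the control diet and 6.44, 6.18, 6.18 and 6.02 on ABA. These groups overlapped, and the change was 0.08 ± 0.08 (limma adjusted p = 0.469). The same value, 6.179, stood on 5 of the 12 arrays, with and without LPS, so a small change there could go unseen. In the second experiment it read 9.45 and 8.14, and on ABA 5.46 and 8.79, in unchallenged wild-type mice. With LPS it read 9.41, 9.87, 9.87 and 9.61, and only the unchallenged value of 9.45 reached into that range. The wild-type change was 1.74 ± 0.64 (limma adjusted p = 0.113). The null change was 1.13 ± 0.64 (limma adjusted p = 0.349), from 6.62 to 9.09 without LPS to 8.69 to 9.72 with it.

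Tnfrsf1b (chromosome 4), the receptor found mainly on immune and endothelial cells, ranged from 10.79 to 11.14 without LPS and from 10.58 to 11.34 with it in the first experiment, a change of 0.20 ± 0.15 (limma adjusted p = 0.368). In wild-type mice of the second experiment it read 8.53, 7.77, 6.41 and 8.48 without LPS, against 8.56, 8.97, 9.44 and 8.92 with it. The LPS arrays lay just above the rest, and the change of 1.18 ± 0.43 did not pass (limma adjusted p = 0.110). In null mice it changed by 0.90 ± 0.43 (limma adjusted p = 0.266), and the groups overlapped. Both receptors turned on the unchallenged ABA arrays of wild-type mice. Without the second, the changes were 2.57 for Tnfrsf1a (adjusted p = 0.00435) and 1.69 for Tnfrsf1b (adjusted p = 0.00927) and passed. Without the first, whose values are the low ones, they were 0.90 (adjusted p = 0.190) and 0.66 (adjusted p = 0.235).

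Among the adaptors, Traf1 (chromosome 2), an NF-kB-induced TRAF protein that binds TRAF2, separated challenged from unchallenged arrays everywhere on the probe set used. On its further probe set they overlapped in the first experiment and in null mice. In the first experiment the probe set used read 9.37, 9.31, 8.70 and 9.31 without LPS. With LPS its lowest, median and highest values were 9.89, 10.12 and 10.55. The rise was 1.01 ± 0.16 (limma adjusted p = 0.0021). The second experiment's wild-type arrays read 5.90, 6.14, 5.35 and 6.59 without LPS, against 9.36, 9.85, 8.44 and 10.09 with it, a rise of 3.44 ± 0.39 (limma adjusted p = 0.000886). In null mice it read 7.24, 6.80, 6.06 and 5.86 without LPS, against 7.79, 8.30, 9.40 and 8.70 with it. That rise was 2.06 ± 0.39, or 4.16-fold (limma adjusted p = 0.0158), and it was lost without the 2 unchallenged null arrays high in Cpa1 (adjusted p = 0.0734), the first challenged ABA array (adjusted p = 0.0610) or the second challenged control array (adjusted p = 0.0547) of null mice.

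Birc3 (chromosome 9), the ubiquitin ligase cIAP2, read 10.70, 10.91, 10.28 and 10.77 without LPS in the first experiment. With LPS its lowest, median and highest values were 11.48, 11.89 and 12.08, above all unchallenged arrays. The rise was 1.21 ± 0.13 (limma adjusted p = 0.000241). Wild-type arrays of the second experiment read 10.01, 10.55, 9.10 and 10.60 without LPS and 12.25, 12.26, 11.86 and 11.92 with it, a rise of 2.01 ± 0.39 (limma adjusted p = 0.0114). In null mice 1 unchallenged control array, at 11.53, reached into the LPS range of 11.45 to 12.24. The null change of 1.37 ± 0.39 did not pass (limma adjusted p = 0.0700). Without that array it was 1.74 and passed (adjusted p = 0.0232), and without either unchallenged ABA array of wild-type mice 1.37 passed (adjusted p = 0.0368).

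Traf2 (chromosome 2), the adaptor that recruits the cIAPs, lay near the lowest value on 10 of 12 first-experiment arrays, at 2.51 to 2.61 without LPS and 2.61 to 2.84 with it. The call there rests on a change of 0.14 ± 0.04 (limma adjusted p = 0.0339) between overlapping groups. It was lost on leaving out any of 8 of the 12 arrays (adjusted p 0.0510 to 0.117) and kept without the second challenged ABA, the third challenged control or the second unchallenged array of either diet. In wild-type mice of the second experiment Traf2 read 6.12, 6.12, 5.55 and 6.07 without LPS. The first 2 are an identical value that stood on 3 of the 16 arrays, so the control pair added no spread. With LPS it read 6.95, 7.71, 6.37 and 6.71. That rise, 0.97 ± 0.22 or 1.96-fold (limma adjusted p = 0.0209), separated the arrays. It was lost without the first unchallenged array of either diet or the second challenged array of either diet (adjusted p 0.0560 to 0.0775). In null mice the groups overlapped and the change was 0.41 ± 0.22 (limma adjusted p = 0.315).

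On the probe sets used, the A20 gene showed the largest fitted LPS change of the 9 genes in each of the 3 comparisons. In wild-type mice of the second experiment Traf1 lay within its standard error. Tnf's change was limited by the lowest value, so its place in this order is not known. The further probe set of Tnfaip3 changed less than the one used in all 3. Tnfaip3 (chromosome 10) read 9.08, 8.93, 7.88 and 8.90 without LPS in the first experiment, a mean of 8.70 ± 0.55 (SD, n = 4). With LPS the mean was 11.62 ± 0.30 (SD, n = 8), with lowest, median and highest values of 11.32, 11.54 and 12.07. The rise was 2.92 ± 0.21 (limma adjusted p = 1.91e-05). In wild-type mice of the second experiment it read 8.12, 8.14, 7.32 and 8.92 without LPS, against 11.70, 11.85, 11.54 and 11.95 with it, a rise of 3.64 ± 0.41 (limma adjusted p = 0.000825). In null mice it read 9.72, 8.25, 8.88 and 7.97 without LPS, against 11.40, 11.62, 11.95 and 11.45 with it, a rise of 2.90 ± 0.41 or 7.47-fold (limma adjusted p = 0.00368). Challenged and unchallenged arrays never overlapped, and the challenged arrays lay closer together than the unchallenged ones.

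Tnip1 (chromosome 11), the partner that links A20 to ubiquitin chains, read 8.14, 8.57, 8.31 and 7.97 without LPS in the first experiment. With LPS its lowest, median and highest values were 9.19, 9.80 and 10.12. The rise was 1.54 ± 0.16 (limma adjusted p = 0.000235). Wild-type arrays of the second experiment read 9.76, 9.08, 9.05 and 9.80 without LPS and 11.51, 11.86, 11.64 and 11.29 with it, a rise of 2.15 ± 0.24 (limma adjusted p = 0.000825). In null mice it read 10, 9.19, 9.80 and 9.40 without LPS, against 11.27, 11.16, 11.71 and 11.67 with it, a rise of 1.86 ± 0.24 or 3.62-fold (limma adjusted p = 0.0025). As for Tnfaip3, no challenged array overlapped an unchallenged one.

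Tnfaip2 (chromosome 12), a TNF-induced gene of the exocyst-like family, was less regular. In the first experiment it read 13.12, 13.18, 14.31 and 12.71 without LPS, and with LPS its lowest, median and highest values were 13.57, 14.35 and 14.57. The unchallenged ABA array at 14.31 lay inside the LPS range. The rise of 0.92 ± 0.28 (limma adjusted p = 0.0369) was lost on leaving out any of 10 of the 12 arrays (adjusted p 0.0520 to 0.0960) and was kept without the first unchallenged or the fourth challenged ABA array. Without the second unchallenged ABA array it was 0.53. The second experiment's wild-type arrays read 9.33, 10.24, 10.77 and 9.73 without LPS, against 11.07, 11.23, 11.18 and 12.09 with it, and 1.37 ± 0.42 did not pass (limma adjusted p = 0.0622). It passed on leaving out either unchallenged control array of null mice (adjusted p = 0.0350), which changes only the estimate of spread. In null mice the rise was 1.71 ± 0.42 or 3.28-fold (limma adjusted p = 0.0426), and it was lost on leaving out any of 11 of the 16 arrays of that experiment (adjusted p 0.0504 to 0.126), all but the 4 unchallenged wild-type arrays and the second unchallenged control array of null mice.

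**Figure D3:**
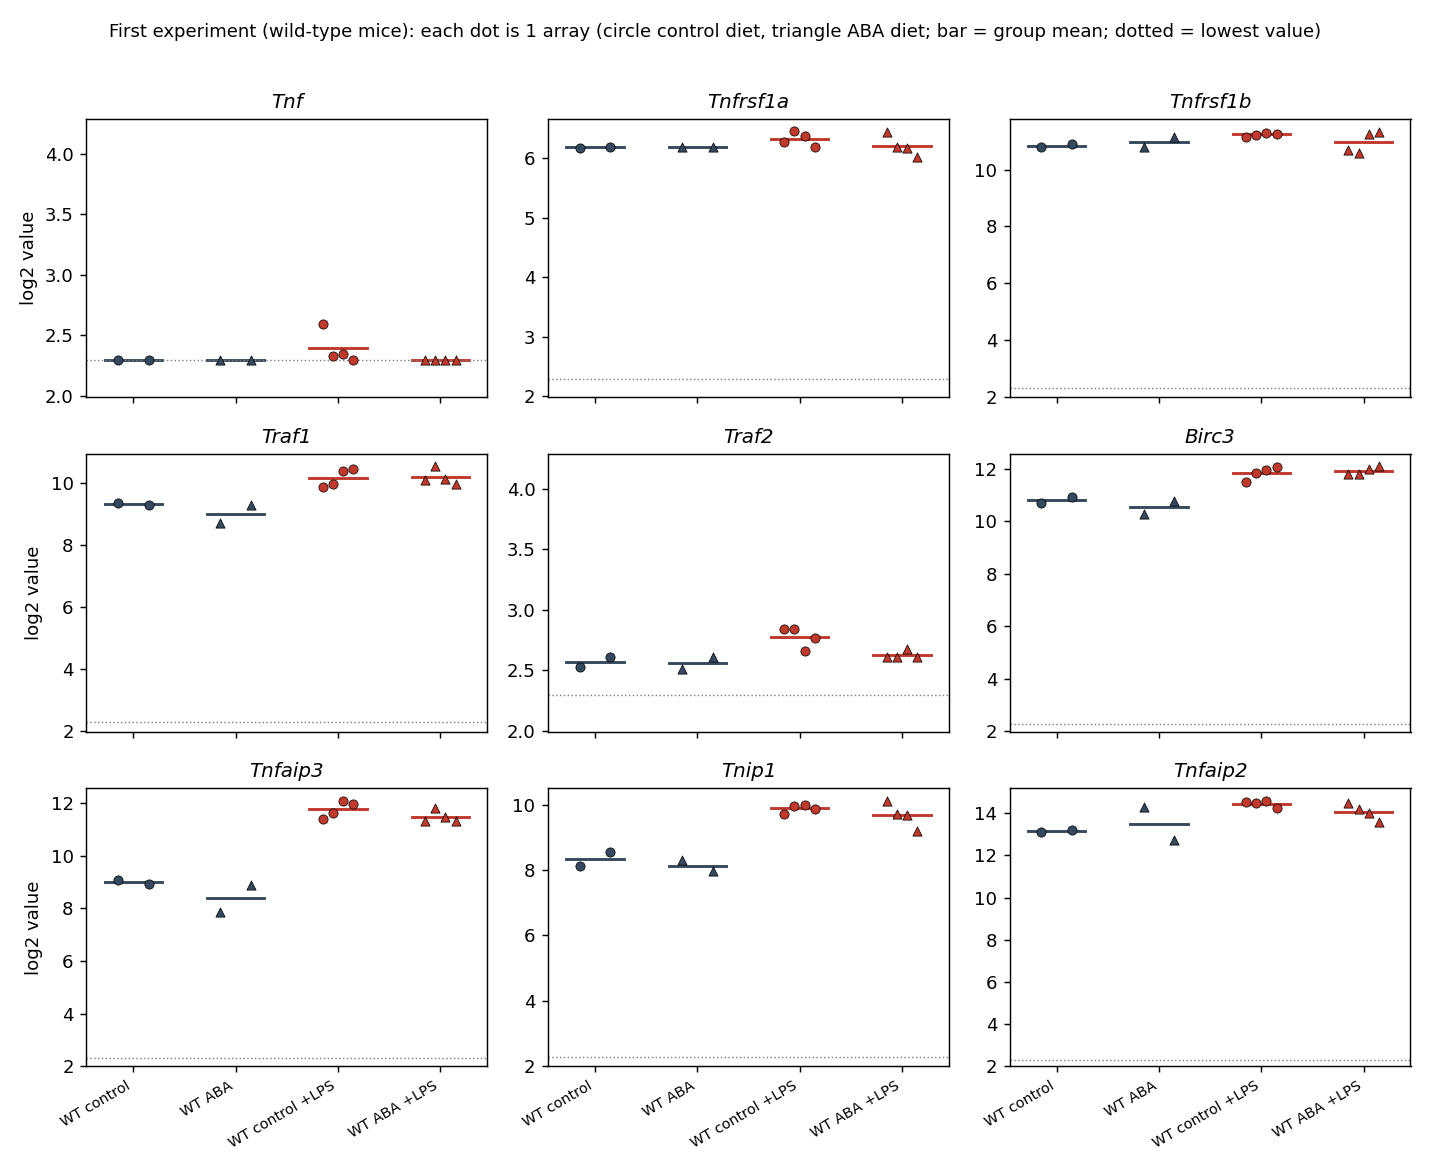
Log2 value of each gene on the 12 arrays of the first experiment, by diet and LPS; dots are arrays, bars group means, and the dotted line the lowest value. Vertical scales differ between panels; Tnf and Traf2 lie within about 0.5 log2 units of the dotted line, and Tnfaip3, Tnip1, Birc3 and Traf1 are higher on every LPS array.

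Arrays of the 2 conditions did not overlap, with LPS higher, for 4 of 9 genes in the first experiment (10.7% of tested genes). In the second experiment this was so for 8 of 9 in wild-type mice (9.47% of tested genes) and 5 of 9 in null mice (6.50%).

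Among 22 measured genes of a TNF receptor signalling list, 8 rose and 1 fell with LPS in the first experiment, 5 rose in wild-type mice of the second experiment and 3 in null mice, with median changes of 0.07, 0.44 and 0.11, beside 15.1%, 8.55% and 3.95% of all tested genes that rose. Mlkl, the executioner of necroptosis, rose by 4.64, 4.39 and 4.48 log2 units in these comparisons. Map3k8, the kinase TPL2, rose by 2.41, 3.34 and 2.62. Birc2, which encodes cIAP1, rose by 1.26, 1.92 and 1.59. Cflar, the caspase-8 inhibitor FLIP, rose by 1.06 and 1.51 in wild-type mice, with 0.97 in null mice that did not pass (limma adjusted p = 0.107). Tnfaip8l2, an inhibitor of immune-cell activation, fell by 0.58 in the first experiment. Of 15 genes of A20 partners and ubiquitin editing, 5 rose and 1 fell in the first experiment, 4 rose in wild-type mice of the second experiment and 3 in null mice, with medians of 0.34, 0.48 and 0.20, beside the same shares. Rnf31, the catalytic subunit of the linear ubiquitin ligase complex, rose by 0.47, 1.93 and 1.49, and Ube2d3, a ubiquitin-conjugating enzyme, by 0.37, 0.64 and 0.52. Tnip2, a relative of Tnip1, rose by 1.63 in wild-type and 1.17 in null mice of the second experiment, with 0.33 in the other (limma adjusted p = 0.159). Peli1, a ubiquitin ligase, rose by 0.54 and Tax1bp1, an A20 adaptor, by 0.71 in the first experiment, where Itch, the ligase that works with A20, fell by 0.42.

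Markers of spleen cell types moved with LPS in the same arrays, and their part in these changes was not tested. Of all tested genes, 15.1% rose and 12.0% fell in the first experiment, 8.55% and 5.49% in wild-type mice of the second, and 3.95% and 3.45% in null mice. Fewer cells of a type and less RNA per cell cannot be told apart in whole spleen. Of 7 erythroid markers, 5 fell in the first experiment, where their mean level per array was 4.56 to 7.26 with LPS and 6.43 to 11.47 without. In wild-type mice of the second experiment 6 of 7 fell, to 5.20 to 7.20 from 10.41 to 13.14, and in null mice none passed, at 7.55 to 10.95 with LPS and 7.59 to 12.92 without. Of 9 neutrophil markers, 4 fell in the first experiment (6.58 to 8.02 with LPS, 7.72 to 9.14 without), while 5 rose in wild-type mice of the second experiment (8.01 to 9.12 with LPS, 6.90 to 7.72 without) and 2 in null mice (7.75 to 8.77, against 6.66 to 7.72). Of 9 macrophage and monocyte markers, 2 rose and 5 fell in the first experiment (6.81 to 7.87 with LPS, 7.74 to 8.20 without), 1 rose and 3 fell in wild-type mice of the second experiment (9.12 to 10.35, against 9.82 to 11.21) and 1 rose and 2 fell in null mice (9.41 to 9.83, against 10.41 to 11.45). Of 7 B cell markers 3 fell and of 8 T cell markers 5 fell in the first experiment, and 1 T cell marker fell in null mice. Xist was high on 2 of 4 challenged and 1 of 4 unchallenged arrays of each genotype in the second experiment, and with a term for it 7 of the 9 genes rose in wild-type mice, Tnfrsf1b added (1.38, adjusted p = 0.0418), and 4 in null mice, Tnfaip2 lost (adjusted p = 0.0536). Cd163 and Ccr2 were near the lowest on every LPS array of the first experiment, and Elane on every LPS array of wild-type mice in the other.

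Further probe sets of 5 of the genes were followed, and no level is set against that of another probe set. That of Birc3 rose by 1.16 (limma adjusted p = 0.0296, over all probe sets tested) and 1.58 (adjusted p = 0.0109) in the wild-type comparisons, with 1.09 in null mice (adjusted p = 0.0690). That of Tnfaip3 rose by 2.23 in wild-type mice of the second experiment (adjusted p = 0.0382), with 1.82 in null mice (adjusted p = 0.109) and 0.25 in the first experiment (adjusted p = 0.272), where 10 of 12 arrays were near the lowest value. That of Traf1 rose by 2.26 in wild-type mice of the second experiment (adjusted p = 0.0203), with 0.92 in null mice (adjusted p = 0.346) and 1.19 in the first experiment (adjusted p = 0.151). Tnfaip2 had a probe set that rose by 2.36 in the first experiment (adjusted p = 0.0447). In the second experiment it changed by 2.22 in wild-type (adjusted p = 0.0544) and 2.04 in null mice (adjusted p = 0.105), neither of which passed. Over all probe sets the one used above did not pass in null mice either (1.71, adjusted p = 0.0517). Another changed by 0.03 in the first experiment (adjusted p = 0.651) and held the lowest value throughout the second. The further probe set of Tnfrsf1b held the lowest value throughout the first experiment.

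PPARg genotype, in mice of the same experiment, was compared with and without LPS and in its interaction with LPS. None of the 9 genes passed in any of these, where limma called 0.00748% of genes without LPS, 0.0299% with LPS and 0.0299% for the interaction, and 597 genes had an unadjusted p under 0.05 for the interaction. The estimate was below 0, a smaller LPS change in null than in wild-type mice, for 8 of the 9 genes and for 61.1% of all tested genes, and was 0.34 ± 0.59 for Tnfaip2. Single arrays turned the sign for 4 of them. Without the first unchallenged ABA array of wild-type mice it was 0.23 for Tnfrsf1a and 0.24 for Tnfrsf1b. Without the second challenged control array of wild-type mice it was 0.09 for Tnf, and without the first unchallenged control array of null mice it was -0.04 for Tnfaip2. Left-out arrays moved Tnfaip3 between -1.13 and -0.34. The widest gap was in Traf1, whose change was -1.39 ± 0.56 log2 units in null relative to wild-type mice (95% interval -2.65 to -0.12, limma adjusted p = 0.943). For Tnfaip3 it was -0.74 ± 0.58 (95% interval -2.05 to 0.58, limma adjusted p = 0.943) and for Tnf -0.36 ± 0.60 (95% interval -1.71 to 0.99, limma adjusted p = 0.945). With LPS, Traf1 was -0.89 ± 0.39 in null relative to wild-type mice (95% interval -1.78 to 0.0072), and its arrays overlapped. The other 8 genes differed by -0.51 to 0.23 with LPS, and all 9 by -0.11 to 0.58 without. In simulated data this interaction recovered 8% of changes of 1 and 50% of changes of 2 log2 units. These were planted in 100 genes per size, in data with no lowest value, and Tnf was too low in level to be drawn. In the real data 4 of 13377 genes were called for the interaction, so recovery for the members may be lower.

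**Figure D4:**
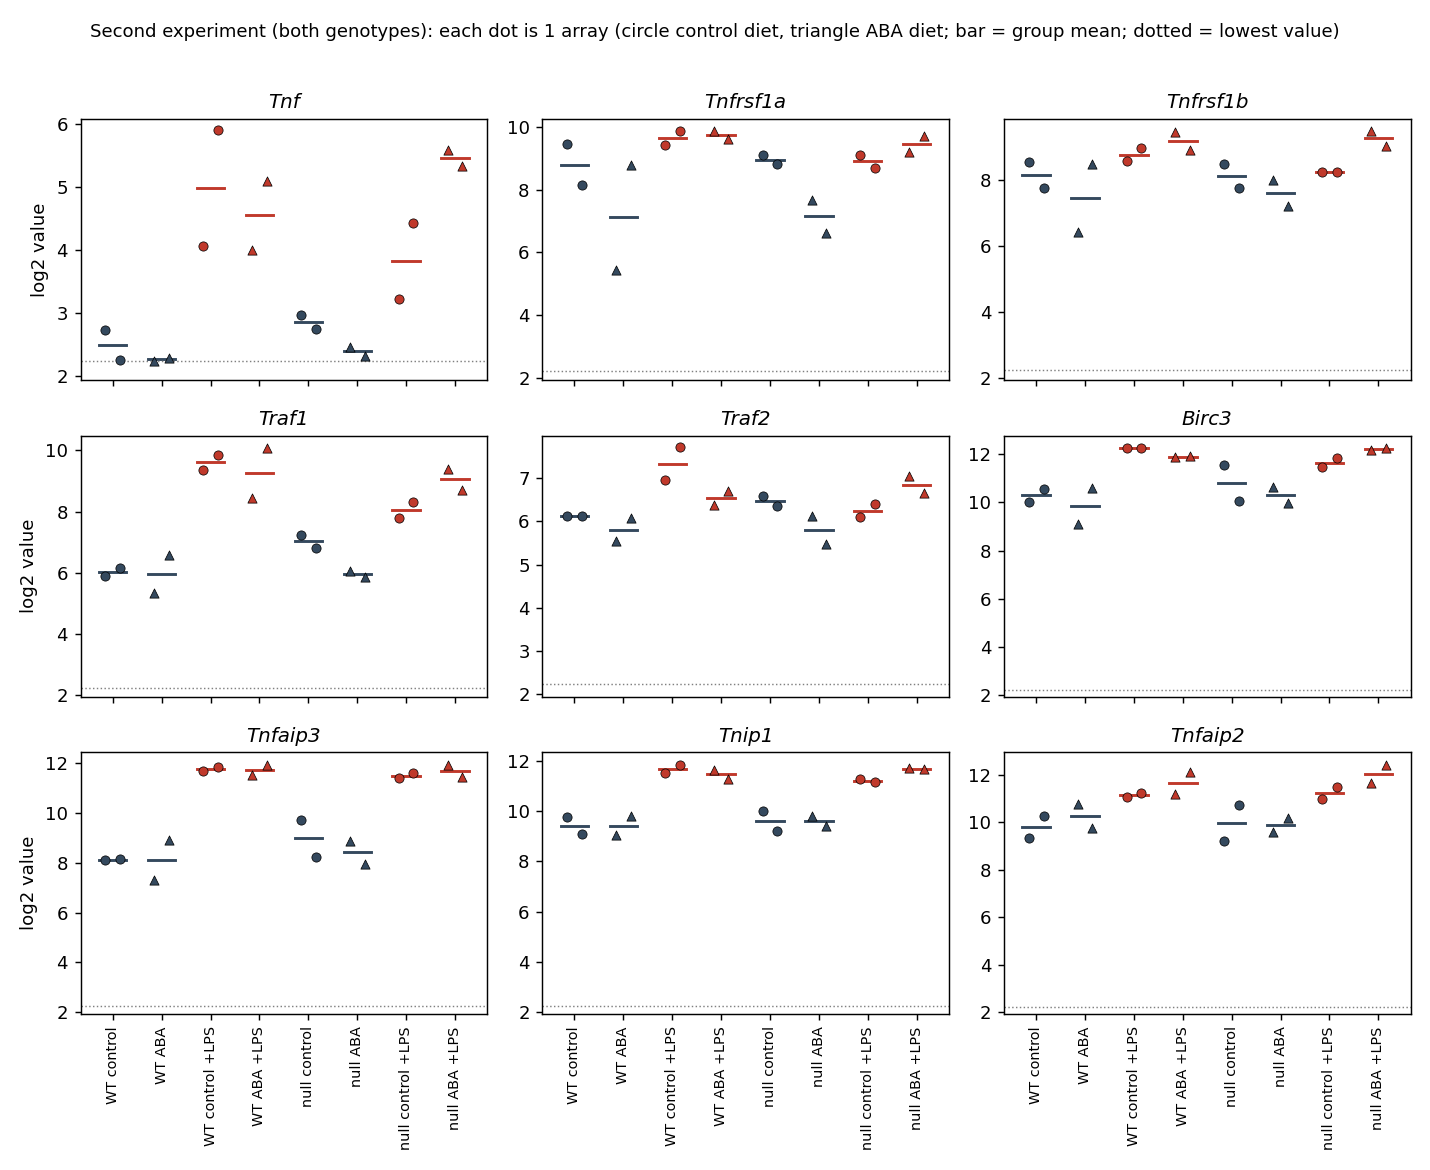
Log2 value of each gene on the 16 arrays of the second experiment, by genotype, diet and LPS; dots are arrays, bars group means, and the dotted line the lowest value. Vertical scales differ between panels; Tnfaip3 and Tnip1 are higher on every LPS array than on any other, and Tnf on LPS reads 3.23 to 5.89.

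Diet was compared within each experiment, genotype and LPS state, and none of the 9 genes passed in any of these comparisons. With LPS, limma called 0.108% of genes in the first experiment, 0.232% in wild-type mice of the second experiment and 0.0972% in null mice. Without LPS these shares were 0.514%, 0% and 0.179%. The interaction of diet and LPS was called for 0.307% in the first experiment. With LPS, ABA minus control diet was -0.09 ± 0.06 for Tnf in the first experiment (limma adjusted p = 0.716), where Tnf could not be seen above the lowest value. It was -0.43 ± 0.60 in wild-type mice of the second experiment (95% interval -1.78 to 0.92, limma adjusted p = 1). For Tnfaip3 the same 2 differences were -0.29 ± 0.24 (95% interval -0.83 to 0.25) and -0.03 ± 0.58 (95% interval -1.35 to 1.28). For Traf2 the difference was -0.79 ± 0.31 in wild-type mice of the second experiment (limma adjusted p = 0.647) and did not pass, and in the first it lay near the lowest value on 6 of the 8 challenged arrays. In the second set of wild-type mice Xist was high on both control arrays and low on both ABA arrays with LPS, so diet and Xist class cannot be told apart there.

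In null mice with LPS, 8 of the 9 genes read higher on both ABA arrays than on both control arrays, all but Tnfaip3. With 2 arrays against 2, 25.1% of all tested genes did so, and 36.1% separated in either direction. Tnf read 5.58 and 5.33 on ABA and 3.23 and 4.43 on the control diet, a difference of 1.62 ± 0.60 (95% interval 0.28 to 2.97, limma adjusted p = 0.51) that did not pass. Xist was high on 1 of the 2 arrays of each diet there. Tnfrsf1b differed by 1.02 ± 0.61 (limma adjusted p = 0.76) and Traf1 by 1.01 ± 0.56 (limma adjusted p = 0.727). In wild-type mice of that experiment, none of the 9 separated with ABA higher (16.1% of genes) and 2, Traf2 and Birc3, with ABA lower (19.8%). The difference of the diet effect between genotypes, added after the values were seen, passed for none of the 9 genes, where 0.127% of genes passed. It was 2.05 ± 0.84 for Tnf (limma adjusted p = 0.623), 1.39 ± 0.44 for Traf2 (limma adjusted p = 0.418) and 1.35 ± 0.79 for Traf1 (limma adjusted p = 0.805).

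Without LPS, 4 genes read lower on both ABA arrays than on both control arrays of null mice, where 17.2% of tested genes did. They were Tnfrsf1a, at -1.80 ± 0.91, Traf1, at -1.06 ± 0.56, Traf2, at -0.67 ± 0.31, and Tnf, at -0.47 ± 0.60, and none passed (limma adjusted p 0.734 to 0.973). In the unchallenged wild-type mice of the same experiment Tnfrsf1a differed by -1.67 ± 0.91 (limma adjusted p = 0.816) on overlapping arrays.

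**Figure D5:**
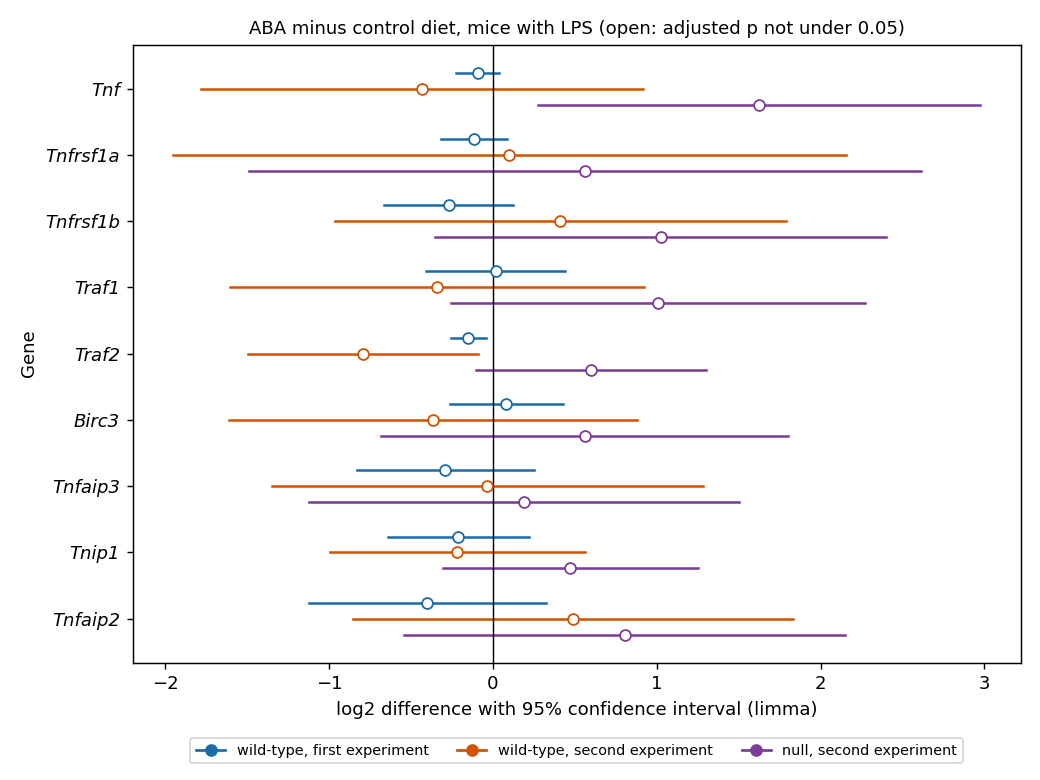
ABA minus control diet in mice with LPS, in log2 units with the 95% confidence interval from limma, for the 3 sets of mice. All points are open because none passed; in null mice (purple) the points lie between 0.19 and 1.62.

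How the genes varied together was described over the 28 arrays with each experiment's mean taken off, challenged and unchallenged together. Tnfaip3 had a Pearson correlation of 0.96 with Tnip1, 0.95 with Birc3 and 0.90 with Traf1. Tnf and Tnfaip3 correlated at 0.72, and apart at 0.24 over the 12 first-experiment arrays and 0.88 over the 16 others. Tnf lay near the lowest value on all of those 12, so its correlations there say little. With the mean of each experiment, genotype and LPS state taken off, Tnfaip3 correlated with Tnip1, Birc3 and Traf1 at 0.29, 0.32 and 0.70 over the 16 challenged arrays and at 0.61, 0.91 and 0.83 over the 12 unchallenged ones. Tnfaip2 and Tnfaip3 stood at 0.28 in the former and -0.81 in the latter. The first unchallenged ABA array of wild-type mice had the lowest Tnfaip3 and highest Tnfaip2 of its condition in both experiments. They read 7.88 and 14.31 in the first, and 7.32 and 10.77 in the second. How far the unchallenged correlations rest on single arrays was not tested. With only each experiment's mean taken off, the receptors correlated at 0.87 with each other. The lowest value of any pair was then 0.30, for Tnfaip2 and Tnfrsf1a. Of 14170 genes compared, those most like Tnfaip3 were Dram1, Ddx58, Ifit3, Trim30a and Procr, each at 0.98 over all arrays. Those most like Tnf were Lad1, Rasa4, Slc2a6, Zc3h12a and Batf2, at 0.91 to 0.93 over all arrays. In the second experiment they stood at 0.92 to 0.94, and in the other, with Tnf near the lowest value, at -0.18 to 0.58.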

How the data were processed

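The authors' deposited table gives log2 expression values for 45101 probe sets on 28 arrays, and GCRMA and limma appear, with no version or role, in the submitters' processing notes. The log2 scale was read from the range of the values, and the experiments appear to have been normalised apart, since their lowest values differ. Probe sets were named through the platform annotation: 34945 named 1 gene, 932 several and 9224 none, of which 64 are controls. Genes above the 40th percentile of an array on at least 2 arrays were tested. Each experiment was fitted apart in limma 3.58.1, under R 4.3.3 (functions lmFit and eBayes, 1 mean per group, 8 residual degrees of freedom), with Benjamini-Hochberg adjustment over all tested genes and calls at 0.05.

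The ± after a change is its standard error. All 9 measured members are named in each LPS comparison, and so are list genes with the smallest adjusted p, not all of which are printed. The members and the lists were chosen with earlier results of these data known. Endothelial markers (1 rose and 1 fell of 4 tested in the first experiment), pancreas markers (none passed there) and adipose markers (none passed there) were also followed. In wild-type mice of the second experiment 1 of 5 endothelial and 1 of 2 adipose markers rose, and in null mice 1 of 4 pancreas and 1 of 5 endothelial markers fell. On simulated data, changes of 2 log2 units were recovered in 89% of cases for LPS in the first experiment and in 73% for wild-type mice of the other. Alternatives covered normalisation, filters, probe set choice, variance, replicate block, Xist, Cpa1 and each array left out.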

Additional observations from a re-analysis of the deposited data

Results flagged for a closer look

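Within the groups of 4 arrays, 18 combinations of gene and group were checked for a single value standing far from the other 3, and 2 stood apart. Chance alone marks about 1 in 20 groups. Tnf read 2.59 on the first challenged control array of the first experiment, with the other 3 at 2.30 to 2.35. Traf2 read 2.68 on the third challenged ABA array of that experiment, with the other 3 at an identical 2.61, so any different value would have stood apart. Both values are near the lowest value of the experiment.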

How the results depend on the processing

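No LPS change reversed its direction while called, under the alternatives run. The LPS by genotype interaction was called for none of the genes in any of them. For the diet comparisons and for null against wild-type mice, only the number of genes called was followed, not the direction. In the second experiment, leaving out a wild-type array kept the null LPS estimates and changed only their spread, and the reverse held too. The counts of runs below therefore overstate the separate checks. Tnfaip3 and Tnip1 passed in all alternatives of the 3 LPS comparisons (21, 26 and 25 runs), and Birc3 and Traf1 in all of both wild-type ones. Tnf passed in all 26 in wild-type mice of the second experiment and in 19 of 25 in null mice. In the first experiment Tnf passed in none of the alternatives fitted on its arrays alone. In the fit of 20 wild-type arrays together, which averages both experiments, its change was 1.05 and passed (adjusted p = 0.0306). Of the 5 genes that rose with LPS in null mice, 3 remained when all probe sets of a gene were averaged (Tnfaip2 and Traf1 were lost) and 3 remained without the arrays with high Cpa1 (Tnf and Traf1 were lost). Leaving out each array in turn gave 2 to 6 genes in null mice, 5 to 8 in the wild-type mice of that experiment and 4 to 5 in the first experiment. It gave 0 to 1 for the interaction of diet and LPS, where Tnfaip2 passed without the second unchallenged ABA array, and 0 in the other diet and genotype comparisons. With arrays centred on their medians the median change of all genes with LPS in null mice moved from -0.01 to 0.13, and 6 genes rose.

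Whether replicate numbers pair the samples could not be decided. Same-numbered arrays of different groups correlated in their deviations at -0.16 to 0.38 in the first experiment (4 of 14 pairs over 0.1). In the other experiment the range was -0.70 to 0.51 (20 of 56). Every value of that experiment stands under each replicate number alike, because deviations in such small groups mirror each other. The same holds for the unchallenged groups of the first experiment, so these counts include repeats. No reference for unpaired arrays was set beside them. With the replicate number as a block, 4 genes rose with LPS in the first experiment (1774 of all genes called, against 3273), 7 in wild-type and 5 in null mice of the other, and the diet and genotype comparisons kept 0.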
